A study of Ovis aries with 16 samples.

Results

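The insulin-like growth factor (IGF) axis was followed in the hippocampus of late-gestation fetal sheep through 5 of its genes, the ligand IGF2, the receptor IGF1R and the binding proteins IGFBP1, IGFBP2 and IGFBP3. Its members were all probes whose gene name or description in the scanner annotation names 1 of these genes, which gave 11 of the 15008 probes on the ovine array: 2 for IGF2, 3 for IGF1R, 3 for IGFBP1, 2 for IGFBP2 and 1 for IGFBP3. All 11 were among the 12543 probes that were well above background on at least 3 of the 16 arrays and were tested.

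Each array held labeled RNA of the hippocampus of 1 chronically catheterized fetus, and 4 groups were compared. The normoxia control group (NC) had 3 fetuses under normoxia without ketamine, the normoxia plus ketamine group (NK) had 4 fetuses given ketamine at 3 mg/kg into a vein before normoxia, the hypoxia control group (HC) had 5 fetuses whose mothers were ventilated with low oxygen for 30 min without ketamine, and the hypoxia plus ketamine group (HK) had 4 fetuses with the same ketamine dose before that hypoxia. In every group the stimulus or its normoxic counterpart lasted 30 min, normoxia followed for 23.5 h, and the tissue was taken 24 h after onset. Ketamine is an anesthetic that blocks NMDA-type glutamate receptors, and the comparisons ask what the hypoxia left behind after a day and whether ketamine beforehand altered it. Most fetuses were twins and pregnancies, not fetuses, were assigned to normoxia or hypoxia. Fetuses may therefore share a mother within a group, or across NC and NK or across HC and HK. The main fit counts every fetus as independent, so p-values measure only the spread between arrays and not that between pregnancies.

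IGF2 is a growth factor that signals mainly through IGF1R, a receptor tyrosine kinase on the cell surface, and it is the more abundant IGF of fetal life. The binding proteins are secreted, hold IGFs in the extracellular fluid and either keep them from the receptor or deliver them to it. In fetal brain, IGF2 and IGFBP2 are known as abundant transcripts of choroid plexus and meninges, while IGFBP1 and IGFBP3 are low in brain tissue and are known to be raised by low oxygen in other organs.

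The probes are 60 bases long, and 6 of them are shown here because they say which stretch of each transcript a value refers to. No base is set in capitals, since the whole run is the probe, and no position in the genome is given because the annotation of the array does not name a build.
IGF2 A_70_P016796: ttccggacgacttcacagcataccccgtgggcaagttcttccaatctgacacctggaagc
IGF1R A_70_P041041: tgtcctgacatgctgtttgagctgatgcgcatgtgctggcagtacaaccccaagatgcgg
IGF1R A_70_P008176: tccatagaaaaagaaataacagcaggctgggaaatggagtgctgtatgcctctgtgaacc
IGF1R A_70_P026721: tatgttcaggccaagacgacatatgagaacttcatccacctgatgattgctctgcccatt
IGFBP1 A_70_P069081: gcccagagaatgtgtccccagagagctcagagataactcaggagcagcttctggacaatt
IGFBP3 A_70_P028616: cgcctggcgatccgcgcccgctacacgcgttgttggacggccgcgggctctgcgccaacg
The 3 IGF1R probes share no stretch of sequence, so they are separate readings of the receptor. The IGFBP3 probe is 75% G and C, the highest share of the 11. The other IGFBP1 probes, A_70_P016366 and A_70_P016367, share 59 of their 60 bases, and so do the IGFBP2 probes A_70_P050966 and A_70_P050967, so each of these pairs is close to a repeated reading of 1 site. In the RefSeq annotation of the sheep assembly ARS-UI_Ramb_v3.0 IGFBP3 and IGFBP1 are neighboring genes, IGFBP2 lies next to IGFBP5, and IGF2 lies next to INS, the insulin gene.

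Values are given as scaled intensity, the background-subtracted brightness of a probe after all arrays were brought to a common 75th percentile of 1037 intensity units, and differences are given on the log2 scale. Before scaling, the 75th percentile lay between 886 and 1215, and 76.8 to 82.8% of probes per array were well above background. All 5 measured markers of hippocampal neurons (GRIN1, GRIA1, GRIA2, SST and NPY) were well above background on 16 of 16 arrays, and so were the 5 measured astrocyte markers. HC replicate 5 stood apart with low neuronal markers, among them SST, a peptide of inhibitory neurons, at 3740 against 18900 to 38400 on the other 15 arrays. NK replicate 2 stood apart in choroid plexus markers, which are given beside IGF2 and IGFBP2. In whole tissue, fewer cells of a type and less RNA per cell cannot be told apart.

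IGFBP1 and IGFBP3 were the members that were higher after hypoxia, while IGF2 and IGFBP2 passed the criterion in no comparison and 1 of 3 IGF1R probes was lower with ketamine before hypoxia than with hypoxia alone. The criterion was an unadjusted p under 0.05 in a single limma fit of the 4 groups across all probes. In hypoxia against normoxia without ketamine (HC-NC), 3 of 11 member probes passed it, all higher, where 4.67% of all tested probes were higher and 10.6% were called in either direction. With ketamine in both groups (HK-NK), again 3 of 11 probes passed and were higher, against 2.87% of all probes higher and 5.18% called. For ketamine under normoxia (NK-NC), none passed, against 1.79% of all probes, and for ketamine before hypoxia (HK-HC), 1 passed and was lower, against 1.88% lower and 4.77% called. The mean of HC-NC and HK-NK, the pooled effect of hypoxia, was past the criterion for 4 of 11 probes, all higher, against 6.00% of all probes higher and 12.4% called. For the interaction of ketamine with hypoxia it was 0 of 11, against 3.40%. After Benjamini-Hochberg adjustment over the 12543 probes, no member had an adjusted p under 0.05 in any of the 6 comparisons (limma), while 0.0159% of all probes did in HC-NC, 0.104% for the pooled effect and 0 in the others. Since probes of a gene repeat each other, these counts stand for IGFBP1 and IGFBP3 in each hypoxia comparison and for IGF1R in HK-HC. The 3 IGFBP1 probes met the filter of 3 arrays well above background only through hypoxia arrays, with 0, 0 and 1 normoxia arrays among them, so the filter had already chosen them for being high in hypoxia and their part of these counts is not read against the share of all probes. Among the 8 other members 1 passed in each of HC-NC, HK-NK and the pooled effect, and it was IGFBP3. Of all probes, 10.6, 5.18 and 12.4% were called in these comparisons. The count of 1 of 8 is therefore near that share in HC-NC and the pooled effect, and it is not read as a result about the members.

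**Figure D1:**
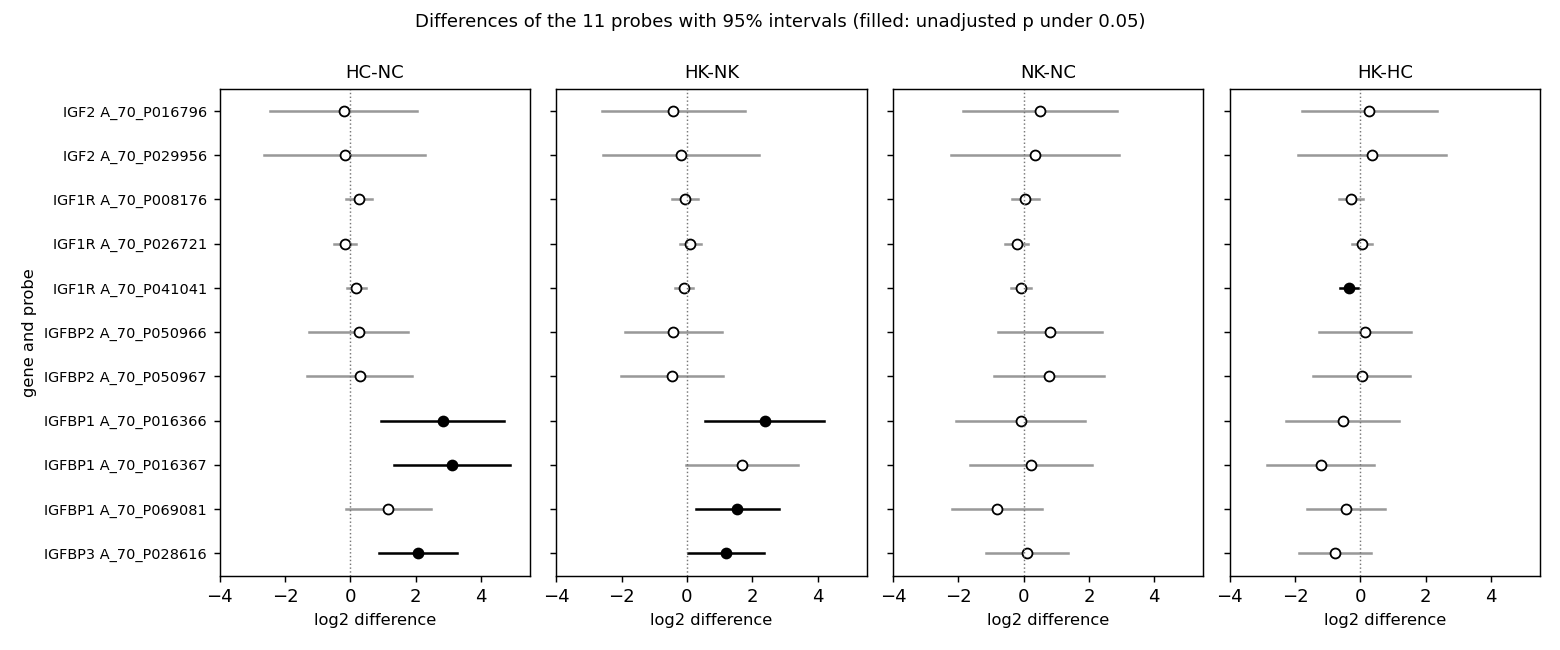
Log2 differences (x axis) of the 11 probes (y axis) with 95% intervals from limma in 4 comparisons, filled and black where the unadjusted p was under 0.05. The estimates of the IGFBP1 and IGFBP3 probes lie to the right of 0 in HC-NC and HK-NK. The intervals of IGFBP1 A_70_P069081 in HC-NC and of IGFBP1 A_70_P016367 in HK-NK nevertheless span 0. The IGF2 and IGFBP2 intervals span 0 in all 4 panels.

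The median log2 difference of the 11 probes was 0.28 in HC-NC, against -0.02 over all probes tested, and -0.06 in HK-NK, against -0.01. In NK-NC the member median was 0.11 against 0.01, in HK-HC -0.28 against 0.02, for the pooled effect of hypoxia 0.04 against -0.02, and for the interaction -0.33 against 0.01. Of the 11 differences, 8 were positive in HC-NC and 5 in HK-NK. Over the 8 members outside IGFBP1 the median was 0.22 in HC-NC, -0.14 in HK-NK, 0.23 in NK-NC, 0.05 in HK-HC, -0.05 for the pooled effect and -0.30 for the interaction.

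IGF2, the ligand, varied far more between fetuses than between conditions. At A_70_P029956 it was 319, 4060 and 915 in NC, and 262, 20200, 1090 and 592 in NK. The same probe read 2130, 564, 1070, 573 and 996 in HC, and 2760, 475, 1560 and 1000 in HK. The 4 groups overlapped, and the highest array was 77.0-fold above the lowest. The second probe, A_70_P016796, sits in another stretch of the transcript and ran in parallel, with 25.1, 176 and 34.0 in NC, 22.5, 976, 45.0 and 32.0 in NK, 120, 24.3, 50.1, 27.3 and 52.9 in HC, and 133, 29.1, 65.1 and 39.2 in HK. Over the 16 arrays the 2 IGF2 probes correlated with a Pearson's r of 0.98. Both were highest in NK replicate 2, next in NC replicate 2, and lowest in NK replicate 1.

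No comparison of IGF2 passed the criterion. The HC-NC difference was -0.17 (SE 1.15) at A_70_P029956 and -0.20 (SE 1.05) at A_70_P016796, and the HK-HC differences were 0.35 (SE 1.06) and 0.28 (SE 0.97). These errors leave wide intervals: for HC-NC at A_70_P029956 the 95% interval reached from -2.63 to 2.29, so a change of 4-fold in either direction lay inside it. Without NK replicate 2 the HK-NK difference at this probe went from -0.18 to 1.12 (SE 0.81) and the NK-NC difference from 0.36 to -0.94 (SE 0.87), neither past the criterion, so this array set the sign of both.

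IGFBP2, a binding protein of cerebrospinal fluid and brain, was level on most arrays. At A_70_P050966 it read 3840, 7160 and 4090 in NC, 3740, 60700, 4610 and 4940 in NK, 6190, 5660, 3580, 4540 and 11200 in HC, and 4660, 9000, 5920 and 6620 in HK. Outside NK replicate 2 the 15 arrays lay between 3580 and 11200, and the groups overlapped. The overlapping probe A_70_P050967 gave 64600 in NK replicate 2 and 3380 to 11800 on the other arrays. No comparison passed the criterion: at A_70_P050966 the difference was 0.26 in HC-NC (SE 0.71), -0.41 in HK-NK (SE 0.69), 0.81 in NK-NC (SE 0.74) and 0.14 in HK-HC (SE 0.65). Without NK replicate 2 the HK-NK difference at this probe was 0.53 (SE 0.34) and the NK-NC difference was -0.13 (SE 0.37), again of the opposite sign.

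Choroid plexus markers moved with IGF2 and IGFBP2 on NK replicate 2. CLDN1, a tight junction protein, was 312 on that array and 26.0 to 49.5 on the others. AQP1, the water channel of the choroid plexus, was 235 there and 2.89 to 34.3 elsewhere, and it was well above background on 4 of 16 arrays. TTR, which encodes the thyroid hormone carrier of the cerebrospinal fluid, was 72400 on NK replicate 2, but it was also 86700 on NC replicate 2, 79800 on HC replicate 5, 51800 on HK replicate 2, 42500 on HC replicate 2 and 36200 on HK replicate 4, against 380 to 8570 on the other 10. CLDN3 was 335 on NK replicate 2, within its range of 193 to 539. The summed intensity of these 4 of 9 listed markers was 1530 to 87100 in NC, 1010 to 73300 in NK, 954 to 80300 in HC and 1630 to 52300 in HK, so the groups overlapped, and none of the 4 passed the criterion in a comparison. Their part in the IGF2 and IGFBP2 values was not tested. As a description over arrays, IGFBP2 at A_70_P050967 correlated with TTR with r = 0.63 over 16 arrays and 0.72 over the 15 without NK replicate 2, while its r of 0.82 with CLDN1 was 0.14 without that array. For IGF2 at A_70_P029956 the r with CLDN1 was 0.65 over 16 arrays and -0.05 over 15. Its r with TTR was 0.36 over 16 arrays and 0.19 over 15.

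**Figure D2:**
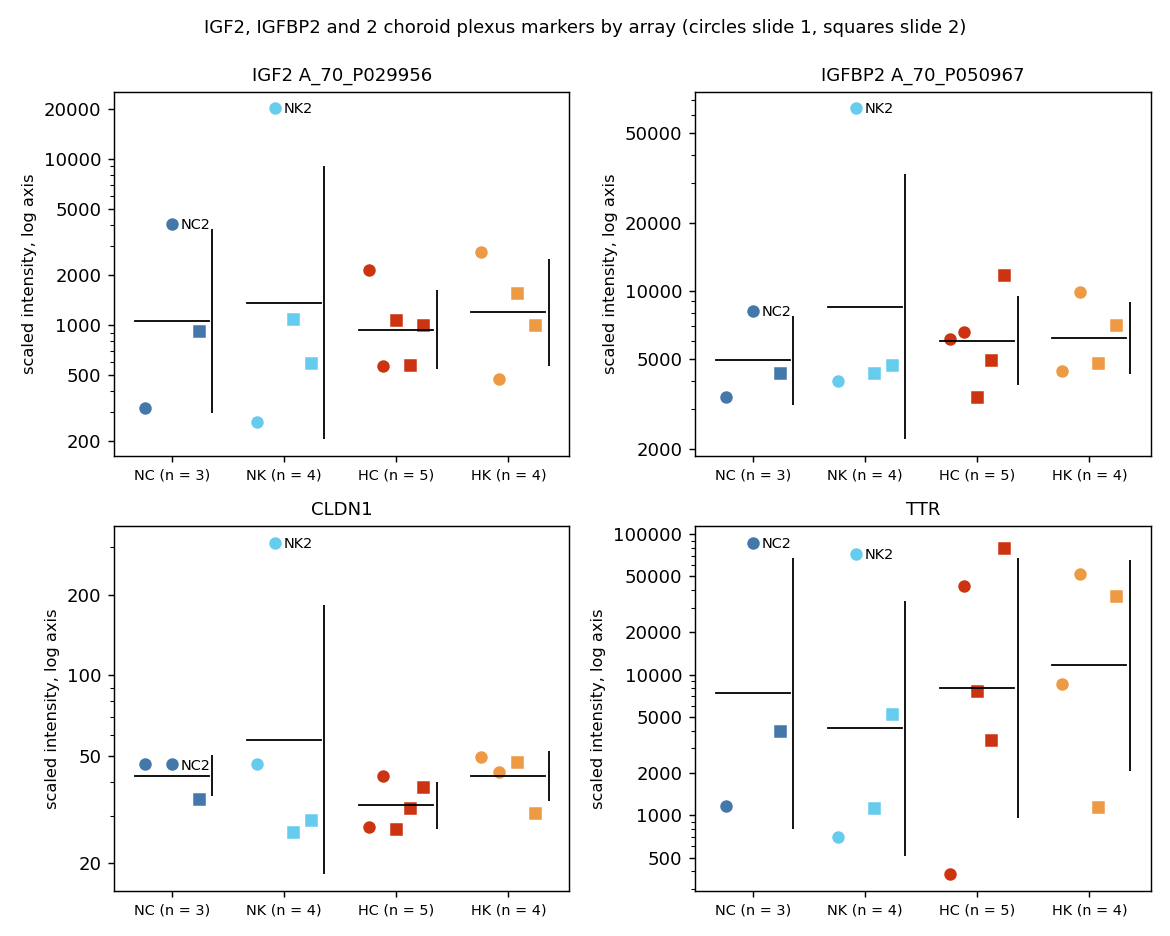
Scaled intensity (log axis) of IGF2, IGFBP2 and the choroid plexus markers CLDN1 and TTR on each array, by group, with the geometric mean (line) and 1 SD of the log2 values (bar). NK replicate 2 is highest for IGF2 (20200), IGFBP2 (64600) and CLDN1 (312), whereas TTR is high on 6 arrays of all 4 groups.

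IGF1R, the receptor, had the narrowest range of the 5 genes, with the highest array 1.87- to 2.06-fold above the lowest at its 3 probes. At A_70_P041041 it was 218, 200 and 203 in NC, 231, 178, 181 and 200 in NK, 210, 241, 300, 210 and 221 in HC, and 197, 190, 201 and 153 in HK. Each HK array was below each HC array, with 201 as the highest in HK and 210 as the lowest in HC. The HK-HC difference fell by 0.35 on the log2 scale (SE 0.13, limma unadjusted p = 0.0143, adjusted p = 0.972), and groups that do not overlap in this direction were found for 0.335% of all probes. The exact permutation test over arrays gave p = 0.0238, two-sided. Within slide 1 the difference was -0.22 and within slide 2 it was -0.46. Without HK replicate 4, the lowest array, it was -0.26 (unadjusted p = 0.0600 in limma) and no longer passed, nor did it with normexp background correction, at -0.24 (unadjusted p = 0.543).

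The remaining IGF1R probes did not pass the criterion in HK-HC, 1 with a difference of like sign and size and 1 without. A_70_P008176 read 43.7, 36.4 and 35.6 in NC, 45.4, 39.9, 35.2 and 39.8 in NK, 65.1, 47.0, 54.0, 33.1 and 39.5 in HC, and 40.6, 41.8, 40.1 and 31.6 in HK, with an HK-HC difference of -0.28 (95% interval -0.64 to 0.09). This difference was -0.34 and passed with the replicate number as a block (unadjusted p = 0.0306 in limma). That block leaves out HC replicate 5, whose number no other array has. Without HC replicate 4 the difference was -0.40 (unadjusted p = 0.0211 in limma). A_70_P026721 read 184, 174 and 168 in NC, 164, 152, 148 and 145 in NK, 154, 156, 227, 122 and 145 in HC, and 169, 167, 183 and 139 in HK, and its HK-HC difference was 0.06 (95% interval -0.25 to 0.37). At the latter probe all NK arrays were below all NC arrays, 164 against 168 at the closest, but the NK-NC difference of -0.21 did not pass the criterion (95% interval -0.56 to 0.15), and 2.11% of all probes had groups apart in that direction. So A_70_P026721 differed in sign from the other probes in HK-HC, and it also did in HC-NC, at -0.16 against 0.18 and 0.28. Their correlations over the 16 arrays were 0.47 to 0.62.

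**Figure D3:**
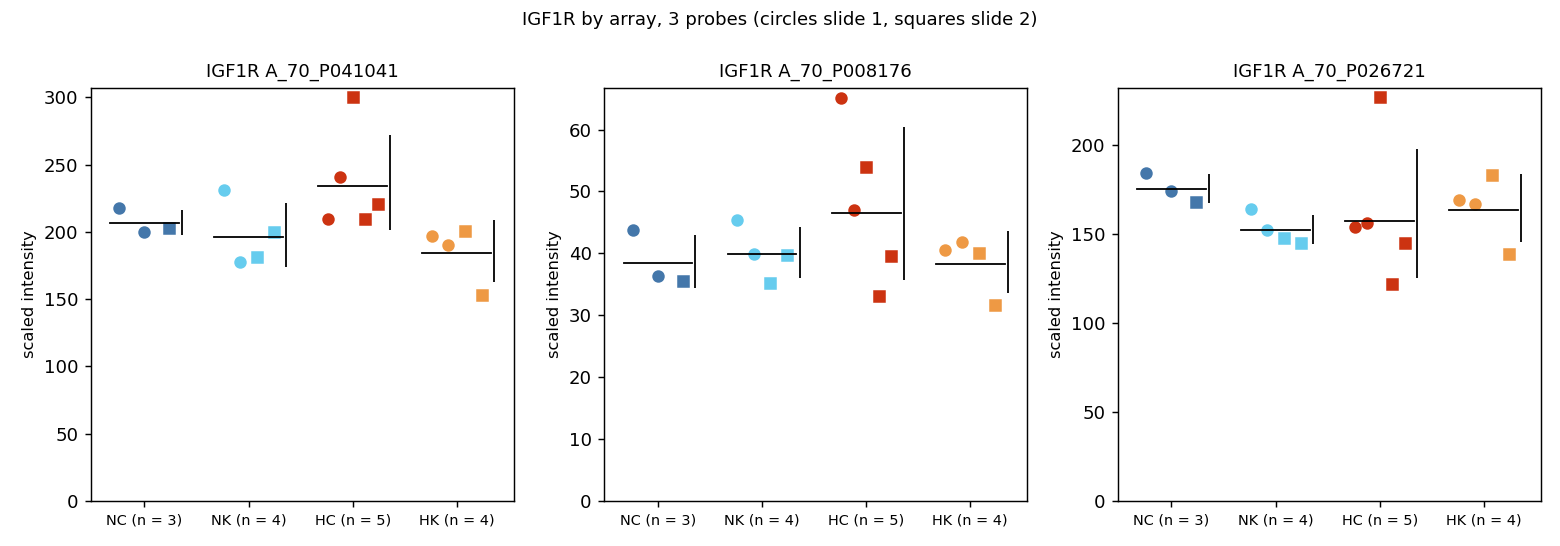
Scaled intensity (linear axis from 0) of IGF1R at 3 probes on each array, by group, with the geometric mean (line) and 1 SD of the log2 values (bar). At A_70_P041041 the 4 HK arrays (153 to 201) lie below the 5 HC arrays (210 to 300), and at the other probes these groups overlap.

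IGFBP1, a binding protein best known from liver and decidua, was close to or under background in normoxia, except on NC replicate 3 at 1 of 3 probes, and was measured on most hypoxia arrays. At A_70_P016366 the values were 2.16, 2.84 and 2.71 in NC and 2.48, 1.86, 3.20 and 2.27 in NK, none of them well above background. In HC they were 26.5, 30.2, 72.9, 4.90 and 6.82, and in HK 50, 16.4, 2.45 and 12.2, with replicates 1 to 3 of HC and replicates 1, 2 and 4 of HK well above background. Thus 6 of 9 hypoxia arrays and 0 of 7 normoxia arrays carried a measured signal. Readings that are not well above background have no order among themselves, so for HC replicates 4 and 5 and HK replicate 3 no rank against normoxia is given.

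Since the normoxia levels are only bounds, the size of the change is given as a lower limit. On each normoxia array the probe was set at the lowest intensity among probes well above background on that array, or at its own intensity where higher, while every hypoxia array kept its own reading, the dim ones included. On this scale A_70_P016366 was at least 1.84-fold higher in HC than in NC and at least 1.41-fold higher in HK than in NK, with 3 of 5 HC and 3 of 4 HK arrays measured. The fitted differences, which take the dim values as read, were 2.83 (SE 0.88, limma unadjusted p = 0.00620, adjusted p = 0.237) and 2.38 (SE 0.85, unadjusted p = 0.0143, adjusted p = 0.907). Both calls were lost with normexp background correction, at 1.57 (unadjusted p = 0.105 in limma) and 0.54 (unadjusted p = 0.551), and in the log2 table of the authors, at 0.12 (unadjusted p = 0.0551) and 0.08 (unadjusted p = 0.144). In that table negative control spots had a median of 8.04, close to the column medians of 8.68 to 8.69. Dim probes thus span a narrow range there, and the size of these differences is not comparable with the fitted ones. The exact permutation tests gave p = 0.0357 for HC-NC and 0.0857 for HK-NK, two-sided. The HC-NC difference was 3.51 within slide 1 and 2.31 within slide 2, and the HK-NK difference was 3.74 and 1.02. Without HK replicate 1 the HK-NK difference was 1.71 (unadjusted p = 0.0573 in limma). The filter had kept all 3 IGFBP1 probes only through hypoxia arrays, so their p-values are given as description and not as support.

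The probe shifted by 1 base, A_70_P016367, repeated the pattern with 1.83, 2.27 and 3.32 in NC, 2.30, 3.28, 4.37 and 1.81 in NK, 29.0, 28.0, 60.9, 8.92 and 8.59 in HC, and 50.7, 5.84, 2.10 and 10.2 in HK. It was at least 2.10-fold higher in HC than in NC, with 3 of 5 HC arrays measured, and had a fitted difference of 3.11 (SE 0.83, limma unadjusted p = 0.00216, adjusted p = 0.193) that was 3.81 within slide 1 and 2.33 within slide 2. With normexp that difference was 1.595 and did not pass (unadjusted p = 0.0971 in limma). In HK-NK its difference of 1.68 (SE 0.81) did not pass, and it did so without HK replicate 3, at 2.38, or without HC replicate 3, which leaves the difference as it is and changes its error. The correlation of these 2 probes over the 16 arrays was 0.95.

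A_70_P069081 lies in another stretch of IGFBP1 and was less uniform in normoxia. It read 1.95, 5.56 and 19 in NC, 3.08, 2.25, 5.51 and 3.38 in NK, 11.4, 10.1, 25.3, 14 and 10.1 in HC, and 18.7, 5.83, 5.80 and 14.8 in HK. Well above background were NC replicate 3, all HC arrays, and HK replicates 1 and 4. Here NC replicate 3 exceeded 4 of 5 HC arrays, and the HC-NC difference of 1.17 did not pass (95% interval -0.14 to 2.48). Without that array it was 2.01 (unadjusted p = 0.00281 in limma). Within slide 1 the HC-NC difference was 1.71, and within slide 2, which holds that array, it was -0.32. HK was at least 1.11-fold higher than NK, with 2 of 4 HK arrays measured, and the fitted HK-NK difference was 1.54 (SE 0.59, limma unadjusted p = 0.0207, adjusted p = 0.909), 1.99 within slide 1 and 1.1 within slide 2. That call was lost without NK replicate 2 (1.35), HK replicate 1 (1.23) or HK replicate 4 (1.35). The pooled effect of hypoxia passed for all 3 IGFBP1 probes, at 2.60 (adjusted p = 0.113), 2.40 (adjusted p = 0.118) and 1.36 (adjusted p = 0.210), by limma. These calls are not support, since the filter had kept the probes only through hypoxia arrays and dim normoxia readings are taken as read. At A_70_P069081 the pooled effect was 1.85 within slide 1 and 0.39 within slide 2, and at A_70_P016366 and A_70_P016367 it did not pass with normexp, at 1.05 and 1.03.

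IGFBP3, the main IGF carrier of the circulation and also made by many tissues, was well above background on all 16 arrays and was higher in hypoxia, with groups that only just did not overlap on the scaled intensity. A_70_P028616 read 36.5, 31.6 and 41.8 in NC and 30.0, 48.0, 46.2 and 35.4 in NK. In HC it read 98.2, 265, 450, 146 and 50.8, and in HK 117, 163, 48.9 and 71.1. The lowest hypoxia array, HK replicate 3 at 48.9, was just above the highest normoxia array, NK replicate 2 at 48.0. Of all probes tested, 0.167% had every hypoxia array above every normoxia array, and 3.09% had HC apart from NC and 1.92% HK apart from NK in that direction. This separation rests on the scaling: it held with quantile normalization and median scaling, but before scaling NK replicate 2 (49.9) was above HK replicate 3 (48.0) and HC replicate 5 (48.2), and 8 of 9 hypoxia arrays were above all normoxia arrays in the log2 table of the authors and 1 of 9 with normexp.

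The geometric means of IGFBP3 ran from 154 in HC over 90.2 in HK and 39.1 in NK to 36.4 in NC, with SDs of 1.22, 0.77, 0.32 and 0.20 on the log2 scale, so the hypoxia groups were also more spread out. In HC-NC the difference was 2.08 (SE 0.56, limma unadjusted p = 0.00218, adjusted p = 0.193), or 4.23-fold, and it was 2.25 within slide 1 and 1.84 within slide 2. In HK-NK it was 1.204 (SE 0.54, limma unadjusted p = 0.0423, adjusted p = 0.937), or 2.30-fold, with 1.86 within slide 1 and 0.545 within slide 2. The exact permutation tests gave p = 0.0536 for HC-NC and, for HK-NK, p = 0.0286, the smallest that 4 against 4 arrays allow. The pooled effect was 1.64 (SE 0.39, limma unadjusted p = 0.000811, adjusted p = 0.113).

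The HC-NC difference of IGFBP3 passed with any 1 array left out, at 1.69 to 2.48, and so did the pooled effect, at 1.45 to 1.84. The HK-NK difference was less secure: it ranged from 0.919 to 1.499 and missed the criterion without HK replicate 1 or 2, NK replicate 1, 3 or 4, NC replicate 1 or HC replicate 4, of which the last 2 alter only the shared error. It was also lost with normexp, at 0.54 (unadjusted p = 0.388 in limma), and in the log2 table of the authors, at 0.21 (unadjusted p = 0.275). The narrow range of dim probes in that table makes the size of the latter difference not comparable with the main one.

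**Figure D4:**
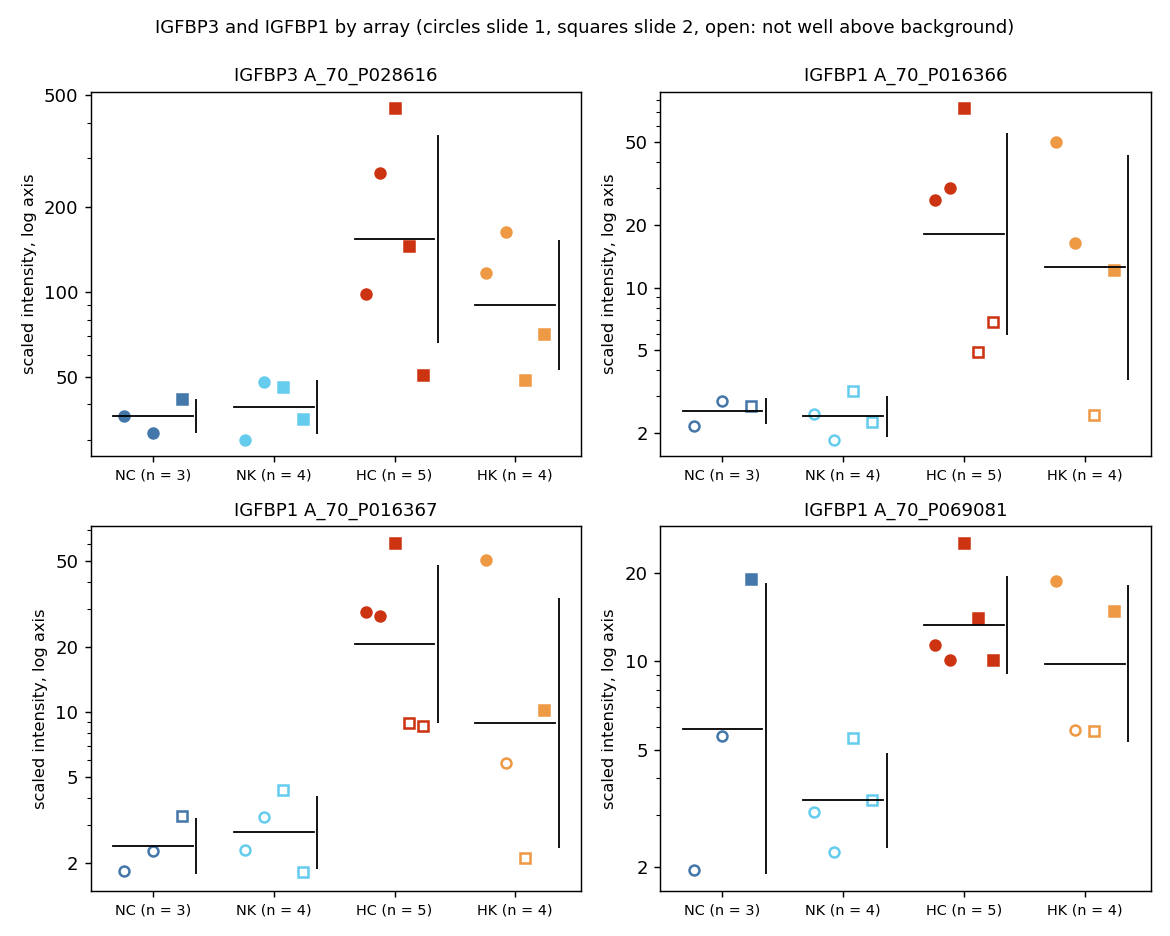
Scaled intensity (log axis) of IGFBP3 and of the 3 IGFBP1 probes on each array, by group, with the geometric mean (line) and 1 SD of the log2 values (bar), open symbols marking arrays not well above background. All 9 hypoxia arrays of IGFBP3 (48.9 to 450) lie above the 7 normoxia arrays (30.0 to 48.0) on this scale, though not before scaling, with normexp or in the log2 table of the authors, and the normoxia values of IGFBP1 are open at A_70_P016366 and A_70_P016367.

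Ketamine before hypoxia went with lower means of both binding proteins than hypoxia alone, but in the main fit not beyond the spread between fetuses. The HK-HC difference was -0.77 for IGFBP3 (95% interval -1.87 to 0.33), and -0.53, -1.21 and -0.44 for the IGFBP1 probes A_70_P016366, A_70_P016367 and A_70_P069081 (lowest bound -2.85, highest 1.199). The HC and HK arrays overlapped for each of them. The IGFBP1 means include readings not well above background, which have no order among themselves. At A_70_P016366 the HK-HC difference ran from -1.2 to 0.251 with each array left out in turn. The IGFBP3 difference was -1.17 and passed (unadjusted p = 0.0190 in limma) without HC replicate 5, which was low in IGFBP3 (50.8) and in neuronal markers. With all arrays it also passed with array weights, at -1.20 (unadjusted p = 0.0229 in limma). With the replicate number as a block the IGFBP3 difference was -1.17 and passed (unadjusted p = 0.0232 in limma). No other array carries the number of HC replicate 5, so that block leaves this array out of HK-HC. It therefore repeats the difference without HC replicate 5 and is not a separate result. Neither gene passed in the interaction, which was -0.88 for IGFBP3 (95% interval -2.54 to 0.79) and -0.45, -1.43 and 0.37 for the IGFBP1 probes. Ketamine under normoxia gave 0.11 for IGFBP3 (95% interval -1.14 to 1.35). HK-HC rests on the same HC arrays as HC-NC and the same HK arrays as HK-NK, so these values are not independent of each other.

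HC replicate 3 was highest for IGFBP3 (450) and for all 3 IGFBP1 probes (72.9, 60.9 and 25.3), and HK replicate 3, the lowest hypoxia array for IGFBP3 (48.9), had no IGFBP1 probe well above background. The correlation of IGFBP3 with IGFBP1 over 16 arrays was 0.86 at A_70_P016366, 0.84 at A_70_P016367 and 0.63 at A_70_P069081, and after group means were removed it was 0.69, 0.60 and 0.28. These values take the unmeasured IGFBP1 readings as read.

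Other markers moved with hypoxia beside IGFBP1 and IGFBP3. Of 10 listed markers of microglia and macrophages 6 were tested, and 3 were higher in HC-NC: CD14, a co-receptor for bacterial lipopolysaccharide, by 1.98 (SE 0.45), FCGR1A, an Fc receptor, by 1.13 (SE 0.44), and FCER1G, an Fc receptor subunit, by 0.73 (SE 0.27). CD14 and FCGR1A fell by 1.1 and 0.996 on the log2 scale in HK-HC, both past the criterion. The summed intensity of the 6 markers was 524 to 655 in NC, 562 to 666 in NK, 863 to 2210 in HC and 595 to 1090 in HK. CD14 was 86.3, 115 and 123 in NC, 85.8, 120, 109 and 133 in NK, 379, 802, 558, 472 and 164 in HC, and 388, 231, 107 and 154 in HK. Of 12 endothelial markers 4 were tested, and SELP, an adhesion molecule of activated endothelium, was higher in HC-NC by 4.16 (SE 0.98) and in HK-NK by 2.53 (SE 0.95), while PECAM1 and FLT1 passed in no comparison. KDR, a receptor for vascular growth factor, went the other way, with a pooled effect of -0.41 (SE 0.15, limma unadjusted p = 0.0178, adjusted p = 0.298) and an HC-NC difference of -0.45 that did not pass. The endothelial sum was 988 to 1120 in NC, 785 to 1220 in NK, 1180 to 3410 in HC and 1020 to 1800 in HK. It includes SELP, at 15.6 to 44.6 in NC and 62.7 to 2700 in HC, whereas PECAM1 was 878 to 1040 and 672 to 1480. So the sum does not stand for a level shared by the 4 markers. Of the 5 neuronal markers, GRIA1 and GRIA2, glutamate receptor subunits, were lower in HC-NC, at -0.65 (SE 0.26) and -0.41 (SE 0.17). GRIN1 at -0.96, SST at -0.65 and NPY at 0.27 did not pass there. The part of any of these cell types in the IGFBP1 and IGFBP3 values was not tested.

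Among 15 genes known to respond to or sense low oxygen, 6 were tested. SLC2A1, the glucose transporter of the blood-brain barrier, was 2140, 2220 and 2260 in NC, 2060, 2130, 2450 and 1840 in NK, 3780, 2950, 5010, 2400 and 2290 in HC, and 3430, 3200, 2360 and 2540 in HK. It was higher in HC-NC by 0.51 (SE 0.22), with the groups apart as for 3.09% of all probes, and in the pooled effect by 0.47 (SE 0.15). VEGFA, the vascular growth factor, and LDHA, a glycolytic enzyme, passed in no comparison. ARNT, the partner subunit of the hypoxia-inducible factors, was lower in HC-NC (-0.54, SE 0.14) and in NK-NC (-0.48, SE 0.14) and higher in HK-NK (0.30, SE 0.13) and HK-HC (0.35, SE 0.12), and HIF1A fell by 0.44 on the log2 scale (SE 0.17) in HK-HC.

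Of 40 further genes of the IGF, insulin and growth hormone pathway, 10 had a named probe and 8 were tested. IGF1, the other IGF ligand, was lower in HC-NC by -0.59 (SE 0.27, limma unadjusted p = 0.0442, adjusted p = 0.454): it read 58.2, 70.4 and 95.2 in NC and 53.3, 56.0, 52.5, 52.6 and 33.3 in HC. In NK it was 50.3 to 68.1 and in HK 32.1 to 81.8, so the lower level was not seen across all hypoxia fetuses. This was 1 of 8 genes in HC-NC, where 742 of the 12543 probes tested were lower and 10.6% were called in either direction, so the count is near that share. GHRHR, the receptor for growth hormone-releasing hormone, was higher in NK-NC by 1.06 (SE 0.40), but it was well above background on 7 of 16 arrays. IGF2R, the clearance receptor for IGF2, IGFBP4, IGFBP5, IGFBP6, GHR and the kinase AKT1 passed in no comparison. In each of HK-NK, HK-HC, the pooled effect and the interaction 0 of 8 passed. The median difference of the 8 genes was -0.14 in HC-NC, 0 in HK-NK, 0.04 in NK-NC and 0.17 in HK-HC. PAPPA, a protease that cleaves binding proteins, and GH were on the array but not tested, with signal well above background on 2 and 0 arrays.

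The genes most like each member were taken as the 3 other names, of 742, with the highest Pearson's r over the 16 arrays, and these are descriptions without a test. For IGFBP3 they were SLC11A1, a metal transporter of phagocytes (0.92), CD14 (0.92) and IL2RA, an interleukin receptor chain (0.91), and within groups these were 0.80, 0.80 and 0.85. SLC11A1 read 18.3 to 36.6 in normoxia and 28.2 to 560 in hypoxia. For IGFBP1, by A_70_P069081, its probe of highest mean, they were SLC25A33, a mitochondrial nucleotide carrier (0.76), PDXK, pyridoxal kinase (0.71), and AGTR1, an angiotensin receptor (0.71). With SLC2A1 the r of this probe was 0.65, and 0.37 within groups, whereas at A_70_P016366, where 6 of 16 arrays were well above background, it was 0.92 and 0.85. The latter values take the unmeasured readings as read.

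**Figure D5:**
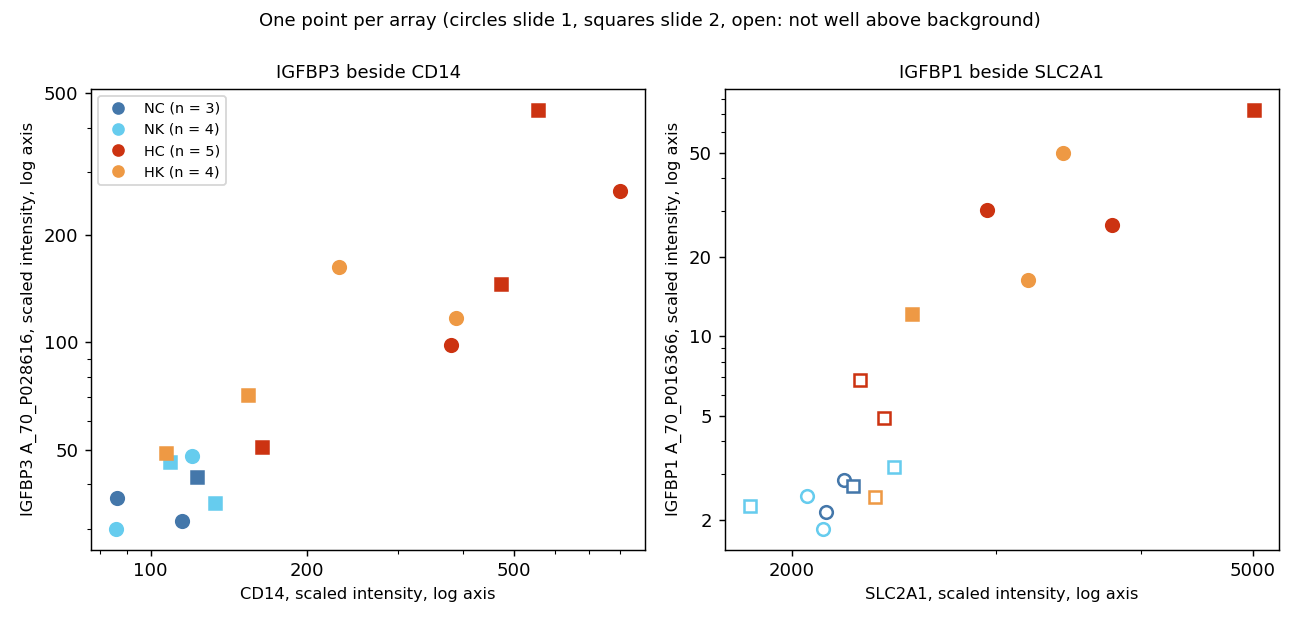
Scaled intensity (log axes) of IGFBP3 against CD14 and of IGFBP1 at A_70_P016366 against SLC2A1, 1 point per array, colored by group, with open symbols for IGFBP1 not well above background. IGFBP3 rises with CD14 (r = 0.92 over 16 arrays). The r of IGFBP1 with SLC2A1 was also 0.92, but only 6 of 16 IGFBP1 values were measured and the others are taken as read. At A_70_P069081, the IGFBP1 probe of highest mean, that r was lower. HK replicate 3 lies among or beside the normoxia arrays in both panels.

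For IGFBP2 the closest were APOA1, an apolipoprotein (0.92), SLC12A4, a potassium-chloride transporter (0.87), and IGFBP6 (0.85), with 0.69, 0.58 and 0.84 over the 15 arrays without NK replicate 2. IGFBP6 was 7470 on that array and 1340 to 4560 on the others. For IGF2 they were BMP4, a bone morphogenetic protein (0.86), ALDH1A1, a retinaldehyde dehydrogenase (0.79), and BCAT1, an aminotransferase (0.76), with 0.71, 0.75 and 0.38 without NK replicate 2. For IGF1R, by A_70_P041041, they were HIF1A (0.74), UMPS, an enzyme of pyrimidine synthesis (0.64), and GFAP, the astrocyte filament protein (0.61). At the probe A_70_P008176 the r with GFAP was 0.03, so that likeness was not shared by the probes.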

How the data were processed

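Hippocampal RNA of 16 fetuses was hybridized to 16 one-color ovine arrays on 2 slides, each slide with all 4 groups. The authors deposited the scanner intensity of every spot, background-subtracted within the array by Feature Extraction, and a log2 table of their own, whose columns share their quantiles. The deposited intensity was put on the log2 scale and, within each array, its 75th percentile over probes that are not controls was subtracted. Outlier spots were left out, and spots of a probe were averaged. No member spot was an outlier or saturated. Of 15008 probes 1429 had a gene name, read from the array annotation or matched to RefSeq, for 882 names. Each other gene was represented by its probe of highest mean. Precision is limited by how many arrays a group has.

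One limma fit (version 3.58.1, R 4.3.3) of the 4 groups gave 6 comparisons, two-sided. The criterion is an unadjusted p under 0.05, after the study's statistics section. Groups do not overlap where every array of 1 group exceeds every array of the other. Exact permutation tests used the difference in means over the arrays of 2 groups. The named genes were every member probe, pathway genes past the criterion, and the 3 most alike per member. Members and gene lists were chosen with earlier results of these data known. Red blood cell and mesenchyme markers (1 and 3 tested) passed in no comparison, and of 5 astrocyte markers GJA1 rose in HC-NC by 0.47 and in the pooled effect by 0.42. The other astrocyte markers did not pass, with HC-NC differences of 0.53 (GFAP), 0.08 (AQP4), -0.39 (SLC1A2) and -0.36 (SLC1A3). Statistics were tested on simulated data.

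Labels do not say whether equal replicate numbers share a pregnancy. Arrays of NC and NK with equal numbers had deviations from the group mean that correlated at 0.37, 0.31 and 0.21, which pairs them for NK-NC by a minimum of 0.1, and the blocked fit called no member there either. NC replicate 3 and NK replicate 4, of unequal number on the same slide, correlated at 0.23. For HC and HK of equal number the correlations were 0.39, 0.31, 0.07 and 0.12, so not every pair reached that minimum. Alternatives were another background correction, scaling, source of values, filter, block, weighting, prior and set of samples, and each array left out in turn.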

Additional observations from a re-analysis of the deposited data

Results flagged for a closer look

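At the IGFBP2 probe A_70_P050966, NK replicate 2 lay far above the rest of its group, at a scaled intensity of 60700 against 4940 for the next NK array, a gap of 0.900 of the group's whole range on the log2 scale. The overlapping IGFBP2 probe A_70_P050967 gave 64600 against 4710 on the same array, a gap of 0.940. For the IGF1R probe A_70_P008176, HK replicate 4 was below the rest of HK at 31.6 against 40.1, a gap of 0.857. Each gap was past Dixon's 95% critical value for 4 arrays, and 33 groups of 4 or 5 arrays were looked at, of which chance alone marks about 1 in 20. IGF2 was also highest on NK replicate 2, but its gaps stayed under that value. The causes were not tested.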

How the results depend on the processing

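The pooled rise of IGFBP3 passed the criterion under every alternative with a test except the Benjamini-Hochberg threshold, and its rise in HC-NC except there and in the exact permutation test. With normexp background correction the count of member probes past the criterion was 1 in HC-NC, 0 in HK-NK, 0 in HK-HC and 1 for the pooled effect. Probes well above background on all 16 arrays, which leaves out IGFBP1, gave 1, 1 and 1 in HC-NC, HK-NK and the pooled effect. Of all probes so filtered, 10.7, 5.31 and 12.7% were called. The authors' deposited values gave 0 in HK-NK, against 4.54% of all probes. After Benjamini-Hochberg adjustment the count was 0 in HC-NC, HK-NK, HK-HC and the pooled effect (limma). With the replicate block it was 3 in HK-HC and 1 for the interaction, and with array weights 2 in HK-HC. With the block within each oxygen group, chosen after seeing the data, it was 3 in HK-HC, against 9.67% of all probes. The 3 in HK-HC were both IGF1R probes that were lower and IGFBP3 (-1.17). Both blocks leave HC replicate 5 out of HK-HC, since no other array has its number. With each array left out in turn the count ranged from 3 to 4 in HC-NC, 0 to 4 in HK-NK (0 without HK replicate 1), 0 to 1 in NK-NC (1 without NC replicate 1), 0 to 2 in HK-HC (0 without HK replicate 4 and 2 without HC replicate 4, HC replicate 5 or HK replicate 1), 4 for the pooled effect and 0 to 1 for the interaction (1 without HC replicate 3 or HK replicate 1). The causes were not tested. By a minimum of 0.1 in every pair, equal replicate numbers did not pair HC with HK, NC with HC or NK with HK. The lowest correlations were 0.07, 0.04 and 0.03. Replicates 1 and 2 of HC and HK correlated at 0.39 and 0.31, so a shared pregnancy there is not excluded.

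Of the single-probe values under alternatives with a test 1773 kept their side of the criterion, 27 lost it and 19 gained it. Of those within a slide, which have no test, 126 moved by less than the spread and 6 by more. No called value reversed. Normexp moved the median of all probes to 0.36 in HC-NC, 0.30 in NK-NC, 0.20 in the pooled effect and -0.33 in the interaction, and called 331 probes higher and 238 lower in HC-NC, where the main values gave 586 and 742. The share of all probes called was 4.54% in HC-NC, 0.582% in HK-NK, 0.144% in NK-NC, 0.718% in HK-HC, 3.63% for the pooled effect and 0.781% for the interaction with normexp, 8.49% in HK-NK, 8.40% in HK-HC and 5.29% for the interaction with the replicate block, and 3.24% in NK-NC, 7.57% in HK-HC and 5.13% for the interaction with array weights. With each array left out in turn that share was 7.55 to 12.9% in HC-NC, 3.91 to 6.39% in HK-NK and 1.43 to 2.58% in NK-NC. It was then 3.24 to 8.6% in HK-HC, 9.5 to 13.8% for the pooled effect and 2.52 to 5.22% for the interaction. Dim signal limits IGFBP1: its normoxia values at A_70_P016366 and A_70_P016367 are bounds.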
